A study of Homo sapiens with 6 samples.

Results

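TRIM genes encode the tripartite motif proteins, and 73 of the 36601 rows of the deposited gene count table carry such a name, that is TRIM followed by a number and at most 1 letter. Members were picked by gene name alone, though the family was chosen with earlier results of these data known. Of these 73 genes, 51 had enough counts to be tested, among 17839 tested genes. The measurement was stranded sequencing of polyadenylated RNA from U2OS, an osteosarcoma cell line of human origin. Aggregate libraries 1, 2 and 3 came from cells given fibril seeds of the TDP-43 low-complexity domain at 50 nM together with a lipid reagent, and then sorted by image for aggregated Clover signal. Diffuse libraries 1, 2 and 3 came from cells given protein storage buffer in place of the seeds and sorted for diffuse Clover signal. All 6 libraries came from the 1 doxycycline-induced line that makes Clover-tagged TDP-43 with an altered nuclear localization signal, were collected 48 hours after transfection and share a batch label. The series design calls the 3 transfections of each kind independent biological replicates, and fibril exposure, sort gate and group cannot be told apart.

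Most TRIM proteins join a RING finger, 1 or more B-boxes and a coiled coil, and act as ubiquitin ligases that attach ubiquitin to other proteins. The part after the coiled coil differs between members and sets what they bind: a PRY-SPRY domain in the largest class, or NHL repeats, a PHD finger with a bromodomain, a microtubule-binding COS box and others. The family is best known for antiviral defence and innate immune signalling, and other members work in gene silencing, on the cytoskeleton, in muscle and in selective autophagy.

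Total gene counts were 41528336 to 46863013 in the aggregate libraries and 40279084 to 43091428 in the diffuse libraries, so that 1 count was worth 0.0212 to 0.0251 CPM (counts scaled to a library total of 1e6, with TMM factors). The 8 markers of U2OS, a mesenchymal line, summed to 5325 to 5784 CPM in aggregate libraries and 8144 to 8508 CPM in diffuse libraries. Of the 7 tested, RUNX2 rose, VIM, FN1, COL1A1 and COL1A2 fell, and SPARC and CDH2 did not pass. TWIST1 was near 0, at 0.00772 and 0.0237 CPM in aggregate and diffuse cells. The blood markers summed to at most 0.362 CPM in an aggregate library and 0.526 CPM in a diffuse library. Group values are means ± SD (n = 3 libraries in each group), and adjusted p-values are from edgeR's quasi-likelihood test with Benjamini-Hochberg adjustment over all tested genes, called below 0.05. In bulk libraries, fewer cells that express a gene and less RNA per cell cannot be told apart.

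Among the 51 tested TRIM genes, 27 fell and 14 rose in aggregate cells, and 10 did not pass. The 41 called genes were 80.4% of those tested, beside 75.4% of all tested genes. The share that fell was 52.9%, beside 37.6% of all tested genes, and the share that rose was 27.5%, beside 37.8%. The median log2 fold change, aggregates over diffuse, was -0.22 over the tested TRIM genes and 0.01 over all tested genes. The groups did not overlap for 39 of the 51 genes, or 76.5%, beside 76.2% of all tested genes. The summed level of the 73 genes was 2118, 2159 and 2114 CPM in aggregate libraries 1, 2 and 3, against 2316, 2276 and 2308 CPM in diffuse libraries 1, 2 and 3.

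Most changes were small, as they were over all called genes. Of the 41 called TRIM genes, 33 changed by less than 2-fold. Over all tested genes 13455 were called, of which 1191 rose and 1447 fell at least 2-fold. A change under 1.5-fold was seen for 22 of the 41, and the share over all called genes was not taken. Those that rose at least 2-fold were TRIM54, TRIM16L and TRIM16, 3 of 51 genes, where 6.68% of all tested genes did so. Those that fell at least 2-fold were TRIM29, TRIM71, TRIM23, TRIM55 and TRIM2, 5 of 51, where 8.11% of all tested genes did so. The plot of fold changes by structural class shows these 8 genes apart from a dense middle.

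**Figure D1:**
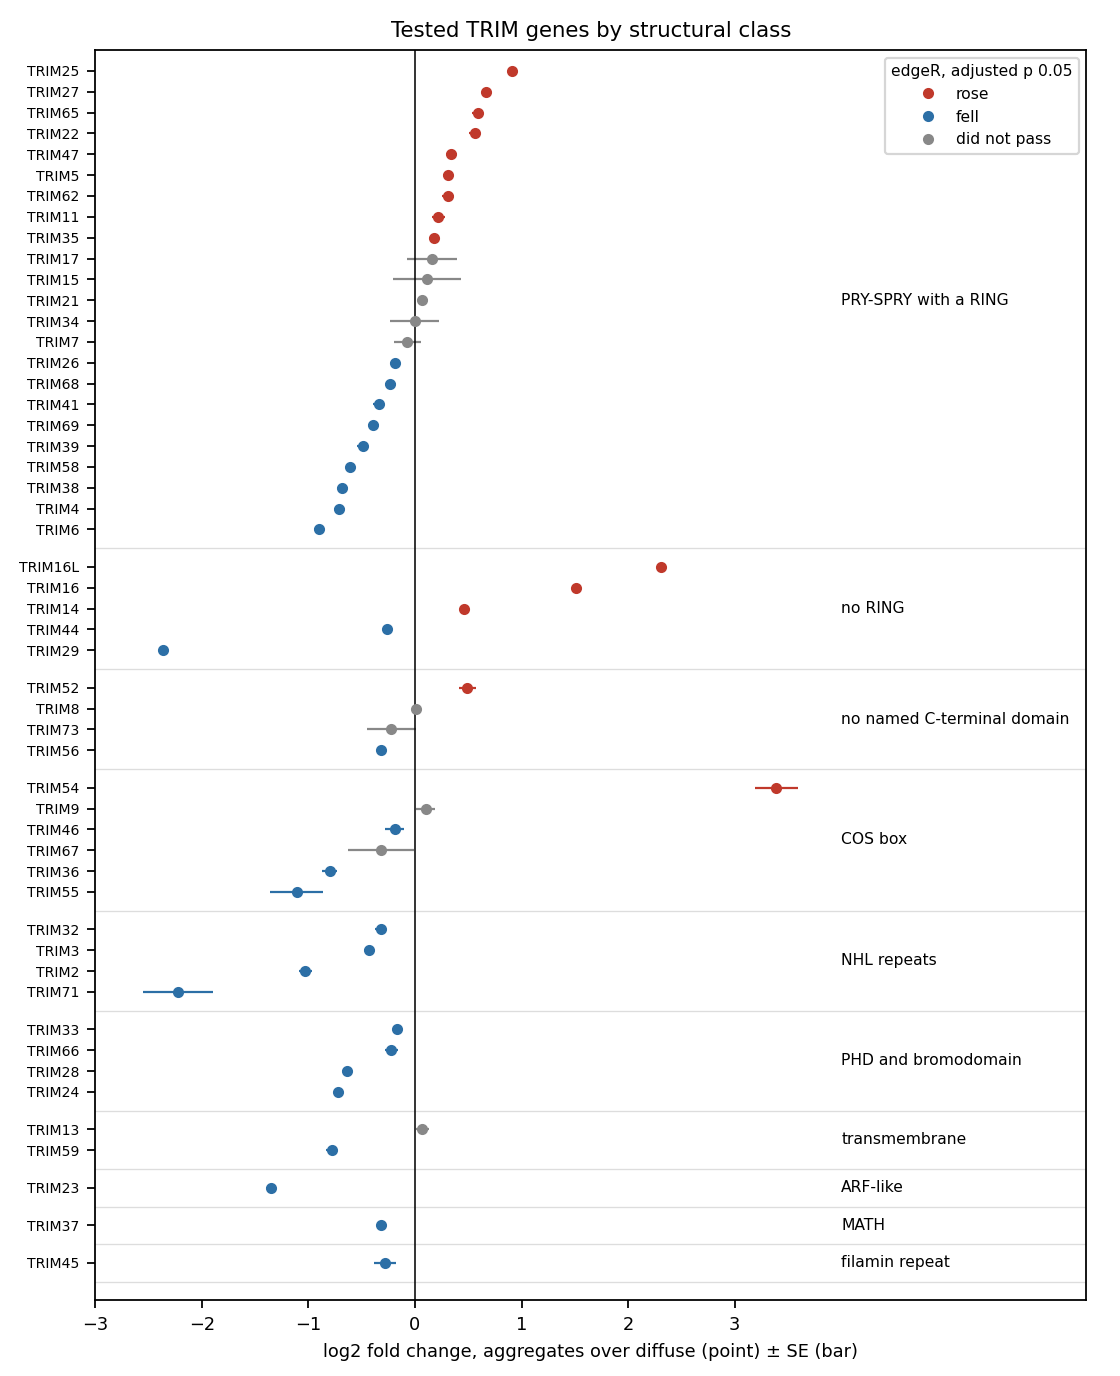
Log2 fold change of each of the 51 tested TRIM genes, aggregates over diffuse (x axis; point, estimate; bar, standard error), grouped down the page by structural class and coloured by edgeR call. TRIM54, TRIM16L and TRIM16 lie farthest right at 3.39, 2.31 and 1.51, TRIM29 and TRIM71 farthest left at -2.36 and -2.22, and every tested NHL and PHD-bromodomain member is left of 0.

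The 5 members grouped here as the class without a RING held the largest changes of well-expressed genes, with 3 that rose and 2 that fell. Of all tested genes, 37.8% rose and 37.6% fell. TRIM16L, a shorter relative of TRIM16, had 150.3, 154 and 151 CPM in aggregate libraries 1, 2 and 3, against 31.1, 30.3 and 30.7 CPM in diffuse libraries 1, 2 and 3. Every aggregate library thus stood far above every diffuse library. The mean was 152 ± 1.78 CPM in aggregate cells and 30.7 ± 0.403 CPM in diffuse cells, a 4.95-fold rise (log2 fold change 2.31, SE 0.04, adjusted p = 1.2e-69). TRIM16, which takes part in the autophagy of damaged endomembranes, had 105, 103 and 98.1 CPM in aggregate libraries, against 37.4, 35.6 and 34.9 CPM in diffuse libraries. Its groups did not overlap either, and it rose 2.84-fold (log2 fold change 1.51, SE 0.04, adjusted p = 5.94e-54). TRIM14, an adaptor of the mitochondrial antiviral signalling protein MAVS, rose with a log2 fold change of 0.46 (SE 0.04, adjusted p = 1.82e-16).

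TRIM29 (chr11:120111275-120185529, minus strand), a RING-less member that binds p53 and regulates innate immune signalling, showed the largest fall. It had 23.6, 23.4 and 22 CPM in aggregate libraries 1, 2 and 3, against 124, 115 and 117 CPM in diffuse libraries 1, 2 and 3. Each aggregate library lay far below each diffuse library. The mean was 23 ± 0.907 CPM in aggregate cells and 118 ± 5.1 CPM in diffuse cells, and the diffuse level was 5.15-fold the aggregate level (log2 fold change -2.36, SE 0.04, adjusted p = 7.18e-68). TRIM29 is also a gene of squamous epithelium, and the 6 epithelial markers summed to 10.9 to 11.4 CPM in aggregate libraries and 21.7 to 22.7 CPM in diffuse libraries. Of the 5 tested epithelial markers, KRT14 (1.52 and 12.1 CPM in aggregate and diffuse cells) and KRT5 fell, ESRP1 rose, and EPCAM and CDH1 did not pass; their part in the TRIM29 result was not tested. TRIM44, whose zinc finger resembles that of ubiquitin proteases, had 245, 248 and 254 CPM in aggregate libraries, against 297, 296 and 299 CPM in diffuse libraries. Its groups did not overlap, although its fall was slight (log2 fold change -0.26, SE 0.04, adjusted p = 2.35e-10).

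**Figure D2:**
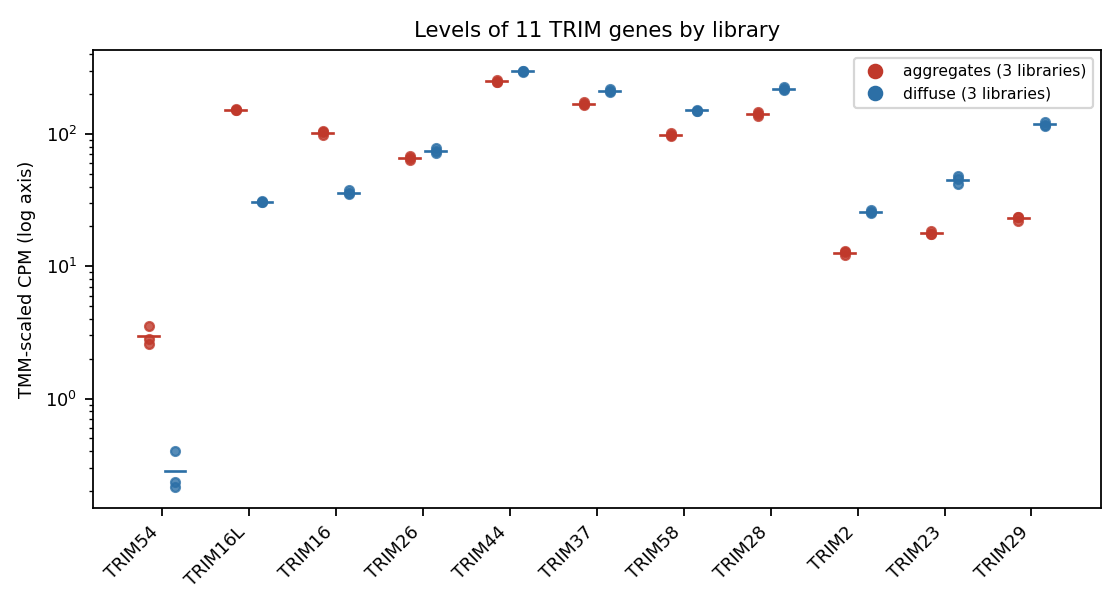
TMM-scaled CPM per library on a log axis for 11 TRIM genes, those called with at least 2-fold change and a mean of at least 1 CPM and the 6 highest per kilobase; points are libraries (aggregates in red on the left, diffuse in blue on the right of each pair) and lines are group means. In all 11 the groups are apart, widest for TRIM54 (2.97 and 0.283 CPM in aggregate and diffuse cells) and TRIM29 (23 and 118 CPM).

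Because TRIM16 and TRIM16L are close copies, reads can be shared between them. Their coding sequences in GENCODE 29 (GRCh38; TRIM16 at chr17:15627960-15684311, minus strand, and TRIM16L at chr17:18697998-18736118, plus strand) align without a gap over the 1044 bases of TRIM16L, with 14 differences and 98.7% identity. The 90-base stretch with the most differences, which starts at base 1042 of the TRIM16 coding sequence and base 394 of that of TRIM16L, shows how few bases tell the genes apart, and capitals mark the 4 that differ.
TRIM16: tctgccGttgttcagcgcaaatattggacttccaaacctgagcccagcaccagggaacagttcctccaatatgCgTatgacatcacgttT
TRIM16L: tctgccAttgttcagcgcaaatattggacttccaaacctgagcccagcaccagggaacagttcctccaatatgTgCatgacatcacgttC
Of all 50-base words in annotated transcripts, 42.0% of those of TRIM16 and 42.6% of those of TRIM16L also occur in another gene. TRIM16L holds 28.9% of the TRIM16 words, and TRIM16 holds 39.4% of the TRIM16L words. AC005324.3, a gene on the same strand, overlaps 23.5% of the exon bases of TRIM16. The gene counts of each are therefore uncertain, and the deposited counts of spliced reads, which have positions, were read as well.

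The deposited counts of spliced reads rose at every TRIM16 intron with enough counts, but only at some of those of TRIM16L. This was looked at after the values were seen. The level of single introns was tested with edgeR over 144620 introns, each with at least 10 counts over the 6 libraries, and 29.0% were called. Of these, only introns with at least 120 counts are described here, and the share called among such introns was not taken. In TRIM16L, the 3 introns nearest the 5′ end among those with enough counts did not pass. The third of them (chr17:18701446-18704618) had 20, 28 and 28 counts in aggregate libraries, against 18, 44 and 26 counts in diffuse libraries, and the groups overlapped (log2 fold change -0.24, SE 0.31). The other 6 introns rose with log2 fold changes of 2.28 to 3.01. Among them the intron at chr17:18722333-18727524 had 1306, 1288 and 1202 counts in aggregate libraries, against 238, 272 and 255 counts in diffuse libraries. GENCODE 29 places 9 annotated transcript starts between the introns that did not pass and those that rose, the earliest at base 18721777 and the last at base 18722247.

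In TRIM16, every intron with enough counts rose, the most 5′ one by the least. Its most 5′ intron with enough counts (chr17:15642817-15651090), called the first here, had 235, 223 and 160 counts in aggregate libraries, against 157, 151 and 120 counts in diffuse libraries, a log2 fold change of 0.49 (SE 0.13, adjusted p = 0.00101). The next 3 introns rose by 1.91, 1.87 and 1.70 on the log2 scale (SE 0.10, 0.09 and 0.09). Of these the middle one (chr17:15632675-15636035) had 848, 981 and 820 counts in aggregate libraries, against 232, 245 and 229 counts in diffuse libraries. Inside the span of the first intron, and upstream of the next, GENCODE 29 places 4 annotated starts, from base 15643275 to base 15642932 on the minus strand. Starts of transcripts were not measured in these libraries, and a difference between introns of 1 gene was not tested as such here. Which introns of TRIM16 and TRIM16L correspond was not established. TRIM16L introns of 84 and 1899 bases near its 5′ end did not pass, and TRIM16 has introns of 84 and 1900 bases near its own. TRIM16L aligns only with the later part of the TRIM16 coding sequence. Whether spliced reads of 1 gene were counted for the other was not tested.

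**Figure D3:**
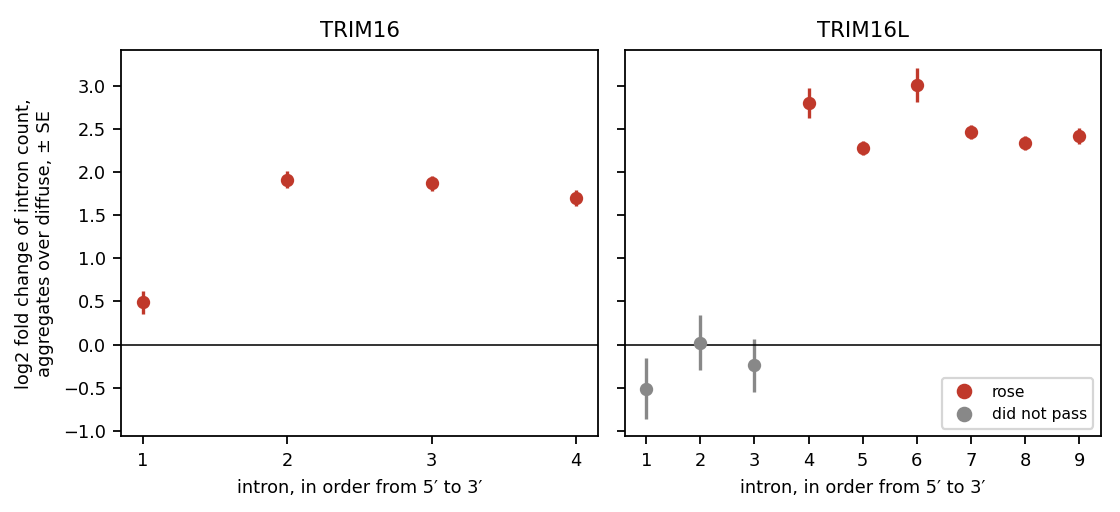
Log2 fold change of the count of each intron of TRIM16 (left panel) and TRIM16L (right panel), aggregates over diffuse, with standard errors, in order from the 5′ end, for introns with at least 120 counts. The most 5′ intron of TRIM16 is at 0.49 and the next 3 at 1.70 to 1.91, and the first 3 introns of TRIM16L did not pass while the other 6 lie at 2.28 to 3.01.

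Of the 6 tested COS-box members, which bind microtubules, 1 rose, 3 fell and 2 did not pass. Of all tested genes, 37.8% rose and 37.6% fell. TRIM54 (chr2:27282392-27307439, plus strand), known as MuRF3 and found mainly in striated muscle, had 2.6, 3.51 and 2.8 CPM in aggregate libraries 1, 2 and 3, against 0.401, 0.214 and 0.234 CPM in diffuse libraries 1, 2 and 3. It was thus very low in diffuse cells and higher in every aggregate library. The mean was 2.97 ± 0.478 CPM in aggregate cells and 0.283 ± 0.102 CPM in diffuse cells, a 10.5-fold rise (log2 fold change 3.39, SE 0.20, adjusted p = 9.83e-28). Its muscle relative TRIM55 fell, with 0.301, 0.446 and 0.483 CPM in aggregate libraries, against 0.676, 1.05 and 0.937 CPM in diffuse libraries (log2 fold change -1.11, SE 0.25, adjusted p = 3.54e-05). Its groups did not overlap, so the 2 tested MuRF genes changed in opposite directions. The third, TRIM63, was not tested, with at most 7 counts in a library. The 7 skeletal muscle markers summed to 5.1 to 5.74 CPM in aggregate libraries and 3.54 to 3.86 CPM in diffuse libraries. MYH1 and MYH2 rose, DES fell, and MYOG and TNNT3 were at 0 in every library; their part in the TRIM54 result was not tested.

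TRIM36, which affects microtubules and the cell cycle, fell to 9.54 ± 0.659 CPM in aggregate cells, against 16.6 ± 1.35 CPM in diffuse cells (log2 fold change -0.80, SE 0.07). TRIM46, a microtubule organiser of the axon initial segment, passed narrowly (log2 fold change -0.19, SE 0.09, adjusted p = 0.0395). Its groups overlapped at 5.04 to 6.01 CPM in aggregate libraries and 5.91 to 6.79 CPM in diffuse libraries, and leaving out aggregate library 1 or 3 or diffuse library 2 or 3 ended the call, with adjusted p of 0.0713, 0.203, 0.167 and 0.0715. The neuronal members TRIM9 (5.83 ± 0.282 CPM in aggregate and 5.43 ± 0.231 CPM in diffuse cells) and TRIM67 (0.334 ± 0.0922 and 0.419 ± 0.0795 CPM) did not pass.

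All 4 NHL members fell, with log2 fold changes of -2.22 to -0.32, where 37.6% of all tested genes fell. The NHL proteins include regulators of mRNA and of neuronal proteins. TRIM2, a neuronal ligase that acts on neurofilament light chain in mouse, had 12.7, 13.1 and 12.2 CPM in aggregate libraries, against 25.4, 25.7 and 26.6 CPM in diffuse libraries. Every aggregate library was below every diffuse library (log2 fold change -1.03, SE 0.06, adjusted p = 1.65e-31). TRIM71, the human LIN-41 that represses mRNAs in stem cells, was low throughout, with 0.185, 0.0637 and 0.193 CPM in aggregate libraries, against 0.802, 0.691 and 0.562 CPM in diffuse libraries. Its groups did not overlap, though only 3 to 8 counts stood behind each aggregate value (log2 fold change -2.22, SE 0.33, adjusted p = 5.72e-09). TRIM3 (log2 fold change -0.43, SE 0.05) and TRIM32, a ligase mutated in a limb-girdle muscular dystrophy (log2 fold change -0.32, SE 0.05), fell less. The 4 neuronal markers summed to 65.4 to 67.3 CPM in aggregate libraries and 50 to 52.6 CPM in diffuse libraries, with 2 that rose and 2 that fell; their part in the falls of TRIM2 and TRIM3 was not tested.

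All 4 PHD-bromodomain members, which act in the nucleus on chromatin and transcription, fell as well, by log2 fold changes of -0.72 to -0.17. Of all tested genes, 37.6% fell. TRIM28 (chr19:58544091-58550722, plus strand), or KAP1, is the corepressor that KRAB zinc finger proteins recruit to silence transposable elements. It had 141, 147 and 136 CPM in aggregate libraries, against 227, 214 and 219 CPM in diffuse libraries. The groups were well apart (141 ± 5.36 CPM in aggregate and 219.8 ± 6.74 CPM in diffuse cells, log2 fold change -0.64, SE 0.04, adjusted p = 5.77e-30). Per kilobase of annotated exon TRIM28 had the highest mean level of the family over the 6 libraries, at 35.0 CPM per kilobase in aggregate and 54.5 in diffuse cells. TRIM24, a coregulator of nuclear receptors, fell to 29.8 ± 0.34 CPM in aggregate cells, against 49.2 ± 0.453 CPM in diffuse cells (log2 fold change -0.72, SE 0.04). TRIM33, which acts on SMAD4 signalling, and TRIM66 fell slightly, with log2 fold changes of -0.17 and -0.22.

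The partners of TRIM28 in silencing did not move as a block. Of 14 such genes, all tested, 4 rose, 7 fell and 3 did not pass, where 37.8% of all tested genes rose and 37.6% fell. Their median log2 fold change was -0.10, beside 0.01 over all tested genes. MPHOSPH8, a subunit of the silencing complex HUSH, had 39.9, 40.1 and 43.5 CPM in aggregate libraries, against 79.6, 82 and 84.6 CPM in diffuse libraries (41.2 ± 2.03 and 82.1 ± 2.5 CPM, adjusted p = 6.67e-40). ZFP57, a KRAB zinc finger protein of imprinted loci, fell as well but was scarce, at 0.126 ± 0.0723 CPM in aggregate and 0.417 ± 0.033 CPM in diffuse cells (log2 fold change -1.67, SE 0.38). SETDB1, the histone methyltransferase that TRIM28 recruits, rose with a log2 fold change of 0.26. It no longer passed when edgeR tested against a fold of 1.2 (adjusted p = 0.416). The largest rise of this list was that of CBX3, with a log2 fold change of 0.32, while ATF7IP fell with -0.92.

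TRIM23, TRIM37 and TRIM45, each the single tested member of its class, fell. TRIM23 carries an ADP-ribosylation factor domain and takes part in antiviral autophagy. It had 18.3, 17.4 and 17.4 CPM in aggregate libraries, against 41.8, 45.5 and 48.1 CPM in diffuse libraries. No aggregate library came near the diffuse range (log2 fold change -1.35, SE 0.05, adjusted p = 1.37e-42). TRIM37, a MATH-domain ligase of peroxisomes and centrosomes, had 168, 166 and 174 CPM in aggregate libraries, against 210.0, 209 and 217 CPM in diffuse libraries. Its groups were apart, with a small difference (log2 fold change -0.32, SE 0.04, adjusted p = 5.9e-14). TRIM45, with a filamin repeat, had 3.75 ± 0.0557 CPM in aggregate and 4.53 ± 0.644 CPM in diffuse cells (log2 fold change -0.28, SE 0.10, adjusted p = 0.0105), and without diffuse library 2 it no longer passed (adjusted p = 0.159). Of the transmembrane members, TRIM59 fell (16.1 ± 0.594 CPM in aggregate and 27.6 ± 0.9 CPM in diffuse cells, log2 fold change -0.78, SE 0.05), with 19.8% of its annotated exon bases opposite exons of SMC4. TRIM13, an endoplasmic reticulum ligase, did not pass at 14.8 ± 0.744 and 14 ± 0.707 CPM in aggregate and diffuse cells.

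The PRY-SPRY members with a RING, the class of most antiviral TRIM proteins, were split much as all tested genes were, of which 37.8% rose and 37.6% fell: of 23 tested, 9 rose, 9 fell and 5 did not pass. Their median log2 fold change was 0.07, beside 0.01 over all tested genes. TRIM25 (chr17:56836387-56914080, minus strand), the ligase that ubiquitinates the RNA sensor RIG-I, rose most, to 159 ± 6.83 CPM in aggregate cells, against 84.7 ± 1.65 CPM in diffuse cells. Its libraries read 154, 167 and 157 CPM in aggregate cells, against 86.1, 82.9 and 85.1 CPM in diffuse cells, without overlap (log2 fold change 0.91, SE 0.04, adjusted p = 2e-40). TRIM27, a ligase of endosomal retromer transport, averaged 76.1 ± 1.2 CPM in aggregate and 47.8 ± 2.15 CPM in diffuse cells (log2 fold change 0.67, SE 0.04). TRIM65, which ubiquitinates the RNA sensor MDA5, averaged 49.5 ± 2.42 and 32.9 ± 1.78 CPM (log2 fold change 0.59, SE 0.05). The retroviral restriction factors TRIM22 and TRIM5 rose with log2 fold changes of 0.56 and 0.31. TRIM47 (0.34), TRIM62 (0.31), TRIM11 (0.22) and TRIM35 (0.18) rose less, and 51.5% of the exon bases of TRIM47 lie opposite an antisense gene.

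TRIM6, which builds unanchored ubiquitin chains in interferon signalling, fell most in this class, to 20.3 ± 0.367 CPM in aggregate cells, against 37.9 ± 1.04 CPM in diffuse cells (log2 fold change -0.90, SE 0.05, adjusted p = 1.24e-31). The annotated gene TRIM6-TRIM34 on the same strand overlaps 29.3% of the exon bases of TRIM6. TRIM4 (log2 fold change -0.71), TRIM38, a negative regulator of innate signalling (-0.68), TRIM39 (-0.49), TRIM69 (-0.39), TRIM41 (-0.34) and TRIM68 (-0.23) also fell. TRIM58, which drives loss of dynein during the last steps of red cell maturation in mouse, was second in level per kilobase. It had 96.4, 101 and 97.6 CPM in aggregate libraries, against 152, 149.7 and 150.0 CPM in diffuse libraries. Its groups were far apart relative to their spread (log2 fold change -0.61, SE 0.04, adjusted p = 5.83e-29). TRIM26 had 63.7, 68 and 65.2 CPM in aggregate libraries, against 78.1, 74.1 and 72.1 CPM in diffuse libraries, a narrow separation (log2 fold change -0.19, SE 0.04, adjusted p = 1.41e-05). TRIM21, the cytosolic antibody receptor, did not pass at 24.5 ± 0.47 and 23.3 ± 1.36 CPM in aggregate and diffuse cells, nor did TRIM7, TRIM15, TRIM17 and TRIM34. Of the 4 tested members with no named C-terminal domain, TRIM52 rose (0.49), TRIM56, a ligase tied to STING signalling, fell (-0.32), and TRIM8 and TRIM73 did not pass.

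The sensing pathways that TRIM25, TRIM65, TRIM14 and TRIM56 act on showed changes in both directions. Of 15 genes of RIG-I-like receptor and DNA sensing, 14 were tested, of which 8 rose, 5 fell and 1 did not pass, where 37.8% of all tested genes rose and 37.6% fell. Their median log2 fold change was 0.21, beside 0.01 over all tested genes. The adaptor of DNA sensing STING, named TMEM173 in the file, had 6.26, 7.27 and 6.08 CPM in aggregate libraries, against 14.1, 12.9 and 13 CPM in diffuse libraries (log2 fold change -1.02, SE 0.07, adjusted p = 6.94e-24). It was the only gene of this list to change at least 2-fold. The targets of TRIM25 and TRIM65 themselves moved little: DDX58, the gene of RIG-I, and IFIH1, the gene of MDA5, rose with log2 fold changes of 0.21 and 0.29.

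Proteins of tripartite motif type whose genes bear other names numbered 9, of which 7 were tested: 2 rose, 4 fell and 1 did not pass, where 37.8% of all tested genes rose and 37.6% fell. Their median log2 fold change was -0.27, beside 0.01 over all tested genes. MID1, a COS-box ligase that binds microtubules, had 2.09, 2.23 and 2.07 CPM in aggregate libraries, against 7.42, 6.62 and 7.94 CPM in diffuse libraries (log2 fold change -1.78, SE 0.10, adjusted p = 7.14e-30). TRIML2, a relative that lacks the RING, averaged 55.2 ± 5.18 CPM in aggregate and 22.2 ± 0.94 CPM in diffuse cells (log2 fold change 1.31, SE 0.05). TRIML1 rose too (log2 fold change 2.32, SE 0.34), but at low levels, at 0.657 ± 0.111 CPM in aggregate and 0.128 ± 0.0345 CPM in diffuse cells.

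Spliced reads gave a readout of the same libraries from the other deposited table. They come from the same sequencing as the gene counts, so the measures are not independent. For 41 TRIM genes, the introns that belong to 1 member alone were summed and scaled to the total of spliced reads. Of the 37 of these that were called on gene counts, 35 had an intron ratio in the same direction. The exceptions were TRIM52 and TRIM35, with log2 ratios of -0.04 and -0.03 where gene counts gave 0.49 and 0.18. For TRIM52 this rests on 18 to 28 spliced reads per library, and 28.5% of its exon bases lie opposite another annotated gene. Across the 41 genes, which share all their libraries, the 2 measures had a Pearson correlation of 0.976. TRIM54, TRIM55, TRIM69 and TRIM71 were called on gene counts but had no such intron sum, so this readout does not cover them.

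**Figure D4:**
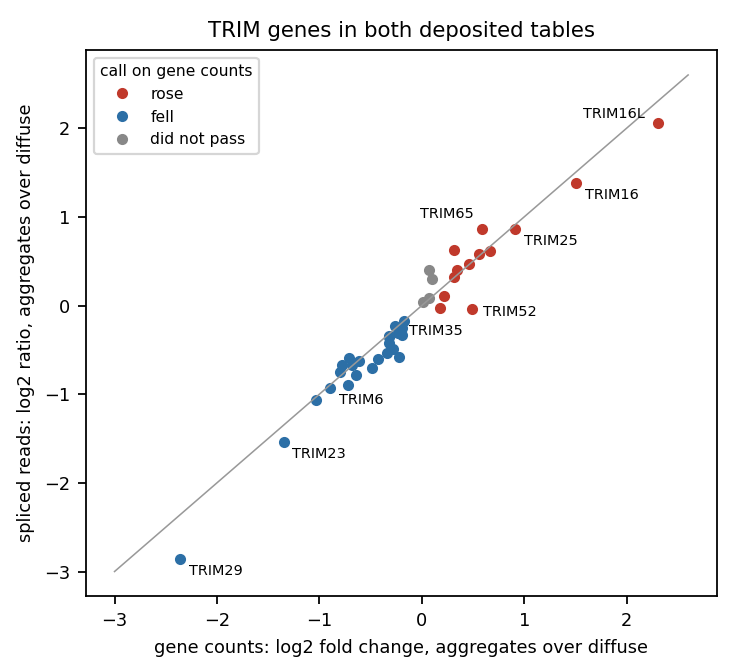
Log2 ratio of summed intron counts (y axis) against log2 fold change of gene counts (x axis), both aggregates over diffuse, for 41 TRIM genes coloured by their call on gene counts; the line marks equal values. TRIM29 is lower in spliced reads (-2.86) than in gene counts (-2.36), and TRIM52 and TRIM35 lie just under 0 in spliced reads although they rose in gene counts.

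Splicing itself was tested per intron cluster, a group of introns that share splice sites, with edgeR's diffSpliceDGE. Of 96 clusters tested in 39 TRIM genes, 6 changed, or 6.25%, beside 5.02% of all tested clusters. They lay in TRIM65, TRIM37, TRIM38, TRIM26 and TRIM33, with a pair of them in TRIM37, and in 3 of the 6 an intron moved by at least 5 percentage points of cluster use.

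The clearest was TRIM65 (chr17:75880335-75897003, minus strand), where an internal exon of 66 bases was included far more often in aggregate cells. The exon lies at chr17:75891813-75891878 on GRCh38, is coding in both annotated transcripts that hold it and adds 22 codons. It is printed from the GENCODE 29 transcript in capitals, between 15 lower-case bases of each neighbouring exon.
TRIM65 exon: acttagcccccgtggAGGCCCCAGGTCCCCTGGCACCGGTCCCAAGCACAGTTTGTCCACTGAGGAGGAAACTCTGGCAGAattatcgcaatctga
Its inclusion, computed from the mean count of its 2 flanking introns and the count of the intron that skips it, was 63.2%, 68.4% and 70.8% in aggregate libraries 1, 2 and 3, against 22.3%, 12.9% and 21.7% in diffuse libraries 1, 2 and 3. Most TRIM65 reads across this site thus held the exon in every aggregate library and lacked it in every diffuse library. The means were 67.5 ± 3.9% in aggregate and 18.9 ± 5.27% in diffuse cells, a difference of 48.5 points. In the cluster test the skipping intron (chr17:75891348-75892010) took 14.8 ± 2.14% of the cluster in aggregate and 45.7 ± 2.12% in diffuse cells (adjusted p of the cluster = 4.42e-11), with 220 to 621 cluster counts per library.

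**Figure D5:**
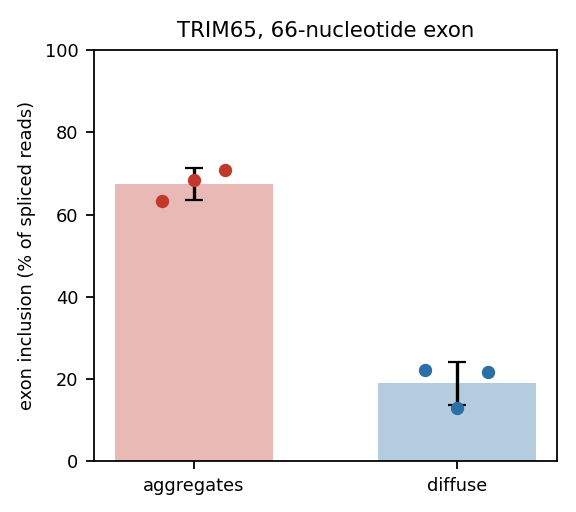
Inclusion of the 66-base exon of TRIM65 in percent of spliced reads across it (bars, mean; error bars, SD; points, libraries) in 3 aggregate and 3 diffuse libraries. The aggregate libraries lie between 63.2% and 70.8% and the diffuse libraries between 12.9% and 22.3%.

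In TRIM37, an intron from a donor site absent from GENCODE 29 (chr17:58982922-58992375) took 36.5%, 33.7% and 30.9% of its cluster in aggregate libraries, against 17%, 20.5% and 14.6% in diffuse libraries. Its groups did not overlap (33.7 ± 2.81% in aggregate and 17.4 ± 2.99% in diffuse cells), and the cluster passed with an adjusted p of 0.0181. The call was lost without aggregate library 1 or 2 or diffuse library 1 or 3 (adjusted p = 0.152, 0.0783, 0.0652 and 0.169). In TRIM38, an intron from an unannotated donor (chr6:25981898-25983163) took 3.17%, 6.42% and 8.75% of its cluster in aggregate libraries and was at 0 in all 3 diffuse libraries. That is 16 of 252 cluster counts in aggregate cells and 0 of 287 in diffuse cells, and a count of 0 still allows a share up to 1.05% there. This cluster passed (adjusted p = 0.0366) but was lost without aggregate library 2 or 3 (adjusted p = 1 for both) or any diffuse library (adjusted p = 0.136, 0.124 and 0.119 without libraries 1, 2 and 3). The TRIM26 cluster changed by less than 5 points: its strongest intron (chr6:30199265-30201034) took 3.93 ± 0.576% of the cluster in aggregate and 0.695 ± 0.377% in diffuse cells (adjusted p of the cluster = 4.32e-05).

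Within a gene, the introns of most members moved together. Of 32 TRIM genes with at least 2 introns of 120 or more counts, 26 had log2 fold changes of their introns within a span of 0.6. The span was over 1 in the other 6, which were TRIM16L (3.51), TRIM65 (3.2), TRIM26 (2.82), TRIM37 (2.46), TRIM16 (1.42) and TRIM33 (1.12). These 6 are the 4 genes of changed clusters above other than TRIM38, and TRIM16 and TRIM16L, in which no cluster was called.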

How the data were processed

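Per the submitters' processing notes, the authors worked on build hg38 with STAR 2.7.11a and fastp 0.23.2. The authors deposited whole-number counts per gene and whole-number LeafCutter counts of spliced reads per intron, neither normalized. No source used here names the gene counter, its annotation or its strand setting, so genes with antisense partners or near-identical copies are uncertain. Reads carry no molecular identifiers, so the limit that a count of 0 allows, set at 3 counts, covers only counting error.

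The gene test was that of edgeR 4.0.16 under R 4.3.3 (filterByExpr, TMM, and a robust quasi-likelihood F test) over all 17839 genes that passed the filter. The common biological coefficient of variation was 3.08%. Introns needed 10 counts over the 6 libraries and clusters 10 in each; diffSpliceDGE gave the cluster test, combined by the Simes method over 35898 clusters. The level of single introns was an alternative chosen after seeing the data. DESeq2 1.42.0 was an alternative. Both pipelines were tested on simulated data. Gene positions, exon lengths, transcripts and intron names came from GENCODE 29, where 95517 of 153462 introns are annotated. No replicate was a copy of another: chi-square per degree of freedom was 2.59 to 6.34 within groups.

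TRIM genes, classes and related lists were chosen with earlier results of these data known. Every tested TRIM gene could be named. Values of each library were due for genes called with at least 2-fold change and a mean of at least 1 CPM, and for the 6 highest per kilobase; they are also given for TRIM25, TRIM55, TRIM71 and the introns shown, chosen after their values were seen. Clusters were named when called with a shift of at least 5 points; TRIM26 was added after its value was seen. From each related list, genes called with at least 2-fold change were named, along with MPHOSPH8, which fell just short of 2-fold (aggregates over diffuse 0.501). SETDB1, DDX58 and IFIH1 were added later for their role, and CBX3 and ATF7IP for the size of their change.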

Additional observations from a re-analysis of the deposited data

How the results depend on the processing

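Of the 41 TRIM calls, 29 held under each of the 12 alternatives in which they were tested, and no direction was reversed; of these, TRIM55 and TRIM71 were too low to be tested with at least 1 CPM in 3 libraries. The other 12 no longer passed when tested against a fold of 1.2, which left 10 that rose and 19 that fell; TRIM45 and TRIM46 were also lost with DESeq2 (adjusted p = 0.0931 and 0.171). Against a fold of 1.2, the counts that rose were 1 for TRIM28 silencing partners, 3 for RNA and DNA sensing and 5 for PRY-SPRY members with a RING, and those that fell were 3 for sensing, 2 for TRIM proteins with other names, 2 for PHD-bromodomain and 1 for RING-less members. With at least 1 CPM in 3 libraries, 1 gene with another name rose, 1 COS-box member fell and the TRIM median was -0.19. Without a filter on low counts, 2 COS-box members and 2 with no named C-terminal domain rose. The median was -0.23 with DESeq2. Leaving out 1 library at a time gave a median of -0.25 to -0.17, 1 to 2 risen members with no named C-terminal domain and 3 to 6 changed TRIM clusters. The cluster F test called 11 TRIM clusters (2721 of 35898 in all), and introns of at least 100 counts left 3 (1233 of 17902 in all, against 1802 of 35898 in the reported test). The replicate block kept 14 risen and 27 fallen TRIM genes; under it the TRIM33 and TRIM38 clusters no longer passed (adjusted p = 0.146 and 0.0658). Libraries of the same number deviated together only weakly (r = 0.036, 0.083 and 0.06), though each correlated best with its own number, so the numbers were not taken as pairs. Only the TRIM65 and TRIM26 clusters were called under every alternative run. Depth limits the precision of TRIM71, with 3 to 8 counts per aggregate library.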

Other observations

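TRIM genes that lie beside each other did not all move alike. In the 11p15 group at chr11:5596109-5938619, TRIM6 fell, TRIM34 did not pass, and TRIM5 and TRIM22 rose (log2 fold changes -0.90, 0.00, 0.31 and 0.56). TRIM34 is uncertain, since 81.3% of its 50-base words also occur in the readthrough gene TRIM6-TRIM34. That gene also holds 25.8% of the words of TRIM6, which is less certain for it. At chr5:181193924-181261139, TRIM41 fell, TRIM52 rose and TRIM7 did not pass (-0.34, 0.49 and -0.07). In the major histocompatibility region, TRIM26 and TRIM39 fell and TRIM15 did not pass (-0.19, -0.49 and 0.11). Of the 50-base words of TRIM39, 26.9% also occur in TRIM39-RPP21. TRIM47 and TRIM65, neighbours at chr17:75874161-75897003, both rose (0.34 and 0.59).

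The 22 TRIM genes that were not tested had at most 15 counts in a library, and TRIM40, TRIM42, TRIM49, TRIM64, TRIM64C and TRIM77 had 0 counts in all 6. TRIM43 had 0, 2 and 0 counts in aggregate libraries 1, 2 and 3, against 2, 14 and 1 counts in diffuse libraries 1, 2 and 3. TRIM49C had 0, 0 and 1 counts in aggregate libraries, against 1, 9 and 2 counts in diffuse libraries, and TRIM43B had 0, 0 and 1 against 0, 7 and 0. The highest count of each of these genes was thus in diffuse library 2. They belong to families of near-identical copies, so the counts of single members are uncertain. TRIM31 had 15, 8 and 10 counts in aggregate libraries, against 5, 3 and 3 counts in diffuse libraries.

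Some TRIM introns moved far without a called cluster. An intron of TRIM52 (chr5:181257495-181260000) took 32%, 42.9% and 55.6% of its cluster in aggregate libraries, against 0%, 10% and 20.8% in diffuse libraries, but with 18 to 28 cluster counts per library (adjusted p = 0.291). These introns were picked after their values were seen.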
